A study of Mus musculus with 3 samples.

Results

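The genes described here are 39 genes of the integrated stress response and the unfolded protein response, among 27179 genes of the deposited table, taken from a list of symbols and matched through their gene identifiers. All 39 were found, and all 39 passed a filter on low values (a mean deposited value of at least 50 over the libraries), as did 11067 genes of the table. They were split by role into 20 genes of the transcription factor ATF4 and of amino acid supply, and 19 genes of chaperones, stress sensors and protein degradation in the endoplasmic reticulum (ER). The cells were wild-type mouse bone marrow stromal cells, an adherent marrow culture, kept in 3% oxygen and given, over 3 days, extracellular vesicles isolated from the plasma of mouse marrow. These vesicles are membrane-bound particles released by cells. The donors of Ocn-EV were CAGS-Snorkel mice carrying Ocn-Cre, a driver active in mature osteoblasts. The donors of Prx1-EV were CAGS-Snorkel mice carrying Prx1-Cre, a driver active in limb mesenchyme and its descendants. The All-EV control vesicles came from wild-type mice. All donors were C57BL/6N and 6 months of age, and each vesicle preparation was a pool from 5 of them (2 male, 3 female), captured with beads bearing an HA antibody, a step the labels give for wild-type plasma too. RNA of 1 culture per preparation was sequenced, so every difference below is between single libraries and cannot be checked against replicates, and p-values are left out.

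Cells respond to misfolded protein in the ER and to lack of amino acids through connected pathways. Phosphorylation of the initiation factor eIF2 by stress kinases lowers general translation but favours translation of the Atf4 messenger, and ATF4 protein then switches on genes for amino acid synthesis, uptake and stress feedback. In the ER, the sensor kinase IRE1 (gene Ern1) cuts the Xbp1 messenger so that an active transcription factor is made, and the sensor ATF6 is released by proteolysis. Both raise the amounts of chaperones and of the machinery that exports misfolded proteins for degradation. Cells that secrete much collagen, as osteoblasts and stromal cells do, depend on this folding capacity. Messenger levels do not show eIF2 phosphorylation, ATF4 protein, ATF6 cleavage or Xbp1 splicing, so those steps were not measured here.

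The regulatory letters that the 2 branches are known to use can be read in the members' promoters. The promoters (250 bases before to 50 after an annotated start, RefSeq, build GRCm38.p6) were found for 35 members, with 38 promoters in all, and not for Atf6, Hyou1, Manf and Slc7a5. Both strands were searched for 4 motifs. The core of the C/EBP-ATF response element (CARE), which ATF4 binds, was taken as TGATGNAA. The ER stress response element (ERSE), which ATF6 binds together with the factor NF-Y, was taken as CCAAT, 9 bases of any kind and CCACG. A second form, ERSE-II, was taken as ATTGG, 1 base and CCACG. The unfolded protein response element (UPRE) was taken as TGACGTGG. The ERSE forms share their CCACG end, and the reverse complement of the UPRE also begins with these letters. The stretches below hold the matches that lie before the start site, with the matching letters in capitals.
Asns (chr6:7693210-7693269, minus strand): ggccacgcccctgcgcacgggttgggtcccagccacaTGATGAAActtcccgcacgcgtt
Atf3 (chr1:191183414-191183473, minus strand): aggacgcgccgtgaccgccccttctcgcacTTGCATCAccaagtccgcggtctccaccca
Chac1 (chr2:119351022-119351081, plus strand): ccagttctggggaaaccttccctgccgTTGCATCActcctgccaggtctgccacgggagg
Nupr1 (chr7:126625551-126625610, minus strand): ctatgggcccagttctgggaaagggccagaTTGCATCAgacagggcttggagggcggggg
Herpud1 (chr8:94386299-94386398, plus strand): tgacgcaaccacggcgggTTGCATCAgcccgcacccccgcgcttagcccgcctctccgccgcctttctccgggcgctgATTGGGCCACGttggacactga
Hspa5 (chr2:34772000-34772059, plus strand): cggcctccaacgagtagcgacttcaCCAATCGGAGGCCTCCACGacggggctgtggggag
Hsp90b1 (chr10:86705525-86705664, minus strand): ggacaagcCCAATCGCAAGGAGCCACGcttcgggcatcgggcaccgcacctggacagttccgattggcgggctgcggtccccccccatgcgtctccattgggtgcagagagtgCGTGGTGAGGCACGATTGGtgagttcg
Calr (chr8:84847052-84847111, minus strand): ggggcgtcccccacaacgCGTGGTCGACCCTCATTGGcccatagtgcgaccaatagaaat
Canx (chr11:50325784-50325843, minus strand): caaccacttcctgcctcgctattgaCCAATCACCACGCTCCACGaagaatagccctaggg
Creld2 (chr15:88819496-88819555, plus strand): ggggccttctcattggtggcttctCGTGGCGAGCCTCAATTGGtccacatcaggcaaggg
Dnajc3 (chr14:118937802-118937861, plus strand): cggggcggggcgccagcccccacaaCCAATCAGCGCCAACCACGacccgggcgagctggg
Pdia6 (chr12:17266459-17266518, plus strand): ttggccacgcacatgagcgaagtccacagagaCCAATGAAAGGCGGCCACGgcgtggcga

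The CARE core stood in 5 of 22 promoters of the ATF4 and amino acid group (22.7%), in Asns, Atf3, Chac1, Nupr1 and Trib3, against 3.97% of all 32851 promoters and 2.25% of the promoters of genes that passed the filter. The Trib3 match begins at base 15 after the start. In the ER group it stood in 1 of 16 promoters, that of Herpud1. The ERSE was found in 7 of 16 promoters of the ER group (43.8%) and in 0 of 22 of the ATF4 group, against 0.119% of all promoters. Hsp90b1 held a pair of them in opposite directions, and Herpud1 held the ERSE-II, which occurs in 0.0365% of all promoters. The UPRE was in none of the member promoters and in 0.676% of all promoters. The ERSE was first described in promoters of chaperone genes such as Hspa5, Hsp90b1 and Calr, so its presence there is known background. The ATF4 group was likewise listed with known ATF4 targets in it, so its larger share with a CARE core is not a separate finding. A match is a run of letters, not a shown binding site, and a missing match says only that the letters are not in that window.

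**Figure D1:**
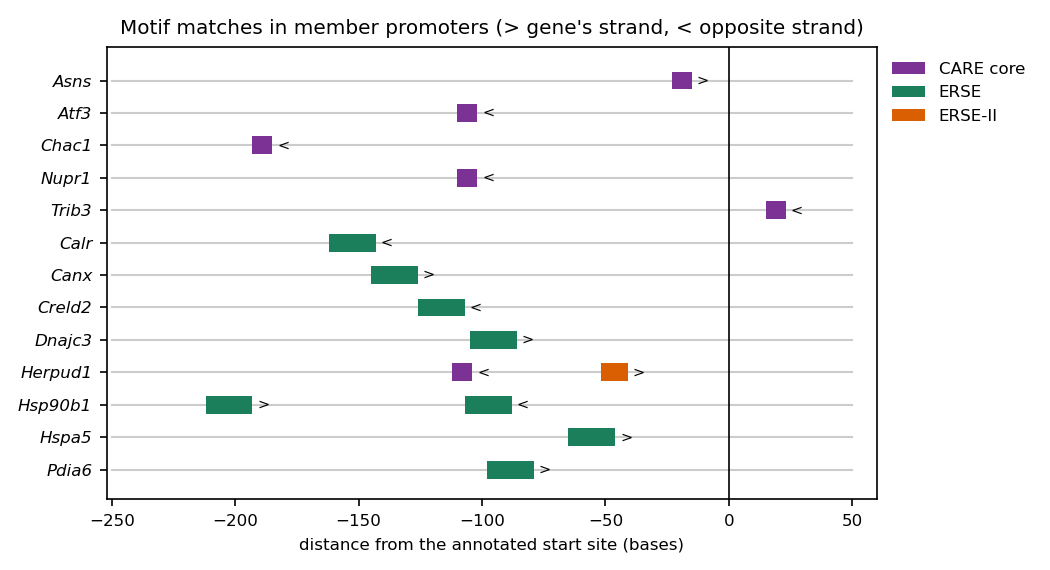
Motif matches in promoters of members, by distance in bases from the annotated start site (x axis), with 1 line per gene. Purple marks the CARE core, green the ERSE and orange the ERSE-II, and arrowheads give the strand. CARE core matches lie in 5 genes of the ATF4 group and in Herpud1, while ERSE matches lie in 7 chaperone genes.

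The libraries held 14233978 to 17269204 reads assigned to genes, and each member had from 97 to 36114 reads in a library. Every level quoted is a normalised count as deposited. The range after a ratio is its 95% interval, for counting error only. Values given without a library name stand for All-EV first, Ocn-EV next and Prx1-EV last, and a pair of ratios for Ocn-EV and then Prx1-EV over All-EV. Macrophage and stromal transcripts were both present. All 15 genes of a macrophage marker list had reads in every library, with summed deposited levels of 300967.5 (All-EV), 183201.6 (Ocn-EV) and 165208.5 (Prx1-EV). In Ocn-EV against All-EV, 7 of these 15 were at least 1.5-fold higher and 4 lower, and in Prx1-EV 5 were higher and 6 lower. Their median log2 ratios were 0.56 and 0.28, with 9 above 0 and 6 below in each comparison. The highest single marker value was 140306 (All-EV), 51741 (Ocn-EV) and 40548 (Prx1-EV), so the sums rest largely on few genes. The 14 stromal and matrix markers summed to 16134, 88166 and 58365 in the same order, below the macrophage sum in every library, with Lum at 0 in all of them. Of the 10 that passed the filter, 8 were at least 1.5-fold higher in each comparison with All-EV. Without the collagen chains they summed to 1877.5, 5685.5 and 3862.0, and 4 of the 6 that passed were higher in each comparison. Over all 11067 genes, 13.8% were at least 1.5-fold higher and 13.6% lower with Ocn-EV, and 12.7% each with Prx1-EV. These counts are as deposited. Equal library totals put 24.7% and 22.9% of all genes at least 1.5-fold higher. Osteoblast markers (8 genes, of which 4, 0 and 2 were at 0) summed to 395, 2215 and 909, and endothelial markers to 696, 979.5 and 999. Neutrophil markers summed to at most 59.98, with Elane, Ly6g and Ltf at 0 in all libraries. Lymphocyte markers summed to 539.8, 193.6 and 138.7, of which Ighm gave 500.2, 142.9 and 119.5, with Cd3e and Cd3d at 0, and erythroid markers to at most 40.7. In a mixed bulk culture, fewer cells of a type and less RNA per cell cannot be told apart, and the part of cell makeup in the ratios below was not tested.

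Among the ATF4 and amino acid genes, 9 of 20 were at least 1.5-fold lower with Ocn-EV than with All-EV and 0 were higher by that amount. Over all 11067 genes, 13.6% were lower and 13.8% higher by that amount. The group's median log2 ratio was −0.42, against −0.02 for all genes. Of the ER chaperone and degradation genes, 4 of 19 were at least 1.5-fold lower and 0 higher, with a median of −0.23, and 18 of the 19 ratios lay below 0, against 51.3% over all genes (8 of 19 and 31.2% with equal library totals). With Prx1-EV against All-EV the ATF4 group had 7 of 20 lower and 0 higher (median −0.27). The ER group had 1 of 19 lower and 0 higher there (median −0.07), while 12.7% of all genes were lower and 12.7% higher. Both comparisons use the All-EV library, so they are not independent of each other.

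These numbers depend on how the libraries are scaled. Setting the libraries to equal totals moved the median of all genes up by 0.26 (Ocn-EV) and 0.22 (Prx1-EV), and then 6.65% of all genes were lower and 24.7% higher by 1.5-fold with Ocn-EV (6.51% and 22.9% with Prx1-EV). With that scaling the ATF4 group kept 7 of its 9 lower genes with Ocn-EV (Atf4, Ddit3, Atf5, Trib3, Ppp1r15a, Asns and Mthfd2) and 2 of its 7 with Prx1-EV (Ddit3 and Trib3). The ER group kept Dnajb9 in both comparisons, and its medians turned to 0.02 and 0.16. Equal totals add a constant to every ratio of a comparison. By construction this hardly moves a group's median relative to the median of all genes. With Ocn-EV that distance was −0.41 and −0.40 for the ATF4 group and −0.22 under both scalings for the ER group. It is therefore not a check on the scaling.

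**Figure D2:**
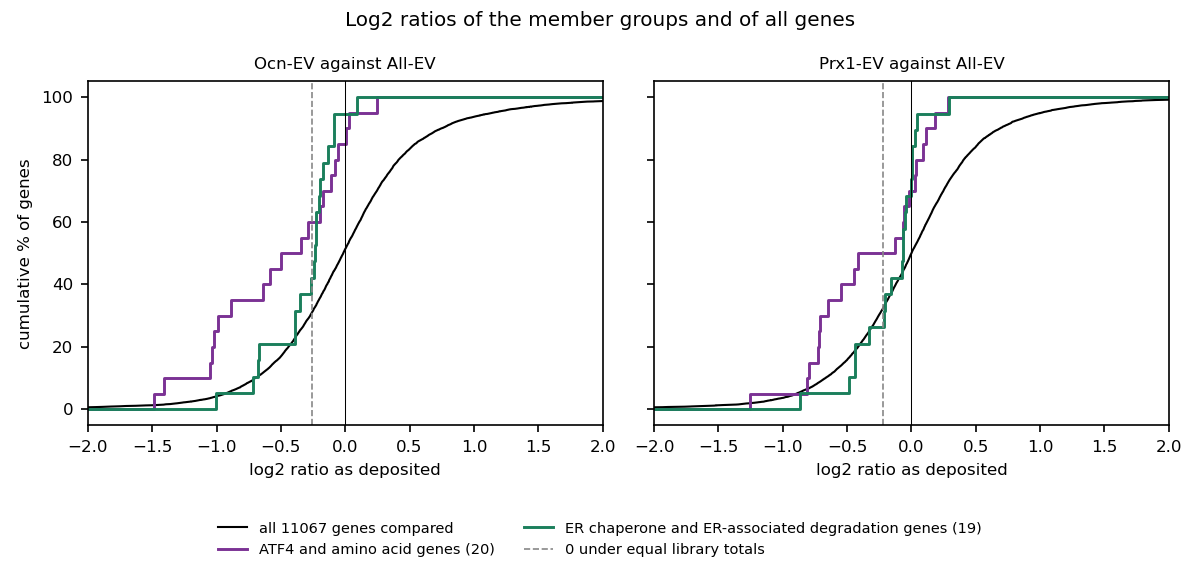
Cumulative percentage of genes (y axis) by log2 ratio of deposited values (x axis) for the ATF4 group (purple, 20 genes), the ER group (green, 19 genes) and all 11067 genes (black), with 1 panel per comparison to All-EV. The dashed line marks where 0 would lie with libraries at equal totals, which put the ER group's medians at 0.02 and 0.16. In the Ocn-EV panel the purple curve lies left of the black curve, with medians of −0.42 and −0.02.

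The 8 transcription factors and feedback regulators had the lowest median ratio of any role (−0.94 with Ocn-EV and −0.72 with Prx1-EV). Atf4 (chr15:80255184-80257545), the central activator of the response, stood at 9676 (All-EV), 4875 (Ocn-EV) and 5861 (Prx1-EV). That is 1.98-fold lower with Ocn-EV (log2 −0.99, −1.04 to −0.94) and 1.65-fold lower with Prx1-EV (−0.72, −0.77 to −0.68). Ocn-EV and Prx1-EV both lay below the control library, and nearer to each other than to it. Ddit3 (chr10:127290793-127296291) encodes CHOP, a factor of prolonged ER stress that ATF4 activates. It stood at 4837, 1726 and 2030.0, in the same library order. It was 2.80-fold lower with Ocn-EV (log2 −1.49, −1.57 to −1.40) and 2.38-fold lower with Prx1-EV (−1.25, −1.33 to −1.18), the lowest ratio among the 39 members in both comparisons as deposited. With trends over length and GC content removed it was −1.03 with Ocn-EV, after Trib3 (−1.45) and Atf5 (−1.11), and −0.82 with Prx1-EV, level with Atf5 (−0.82). Its annotated span overlaps Mars1 by 71 bases and Mbd6 by 77 bases, and the sources used here do not give whether reads were counted by strand.

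Trib3, a pseudokinase that ATF4 and CHOP induce and that restrains them in turn, stood at 2527 (All-EV), 953 (Ocn-EV) and 1439 (Prx1-EV). This was 2.65-fold lower with Ocn-EV (log2 −1.41, −1.52 to −1.30) and 1.76-fold lower with Prx1-EV (−0.81, −0.91 to −0.72). Ocn-EV also lay below Prx1-EV, by more than for any other regulator. Atf5, a related factor whose translation is also favoured by eIF2 phosphorylation, stood at 9867, 4872 and 5685, in the same library order, with log2 ratios of −1.02 (−1.07 to −0.97) and −0.80 (−0.84 to −0.75). Atf5 overlaps Nup62, itself at 3377, 2307 and 2564, by 571 bases. Ppp1r15a encodes GADD34, the stress-induced subunit that recruits a phosphatase to eIF2. It stood at 2107, 1137 and 1288, with log2 ratios of −0.89 (−0.999 to −0.782) for Ocn-EV and −0.71 (−0.81 to −0.61) for Prx1-EV.

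The remaining factors stayed closer to the control. Atf3, a stress-induced factor of the same family with a CARE core in its promoter, stood at 6736 (All-EV), 5515 (Ocn-EV) and 6451 (Prx1-EV) (log2 −0.29, −0.34 to −0.23, and −0.06, −0.11 to −0.01). Cebpg, the dimer partner of ATF4 at CARE sites, stood at 2594, 2043 and 2376 (log2 −0.34 and −0.13). Nupr1, a small chromatin protein induced by stress, stood at 359, 346 and 366, and both of its intervals include 0. So 5 of the 8 regulators were at least 1.5-fold lower in both comparisons, and the other 3 were not. Over all genes 13.6% (Ocn-EV) and 12.7% (Prx1-EV) were lower, counted separately for each comparison. With equal library totals all 5 still passed with Ocn-EV. With Prx1-EV Ddit3 and Trib3 passed, while Atf4 (−0.50), Atf5 (−0.57) and Ppp1r15a (−0.49) did not. Within each library, Ddit3 stood at 0.4999 of the Atf4 value (All-EV), 0.354 (Ocn-EV) and 0.346 (Prx1-EV), and Trib3 at 0.261, 0.195 and 0.245. Asns held 0.162, 0.155 and 0.170 of the Atf4 value. These pairs were chosen after their values were seen, and their ratios do not depend on the scaling of libraries. They can depend on length and GC content. With those trends removed, Ddit3 lay close to Atf4, at log2 ratios of −1.03 against −0.97 (Ocn-EV) and −0.82 against −0.67 (Prx1-EV). Trib3 was then at −1.45 and −0.81, and Asns at −0.86 and −0.47.

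**Figure D3:**
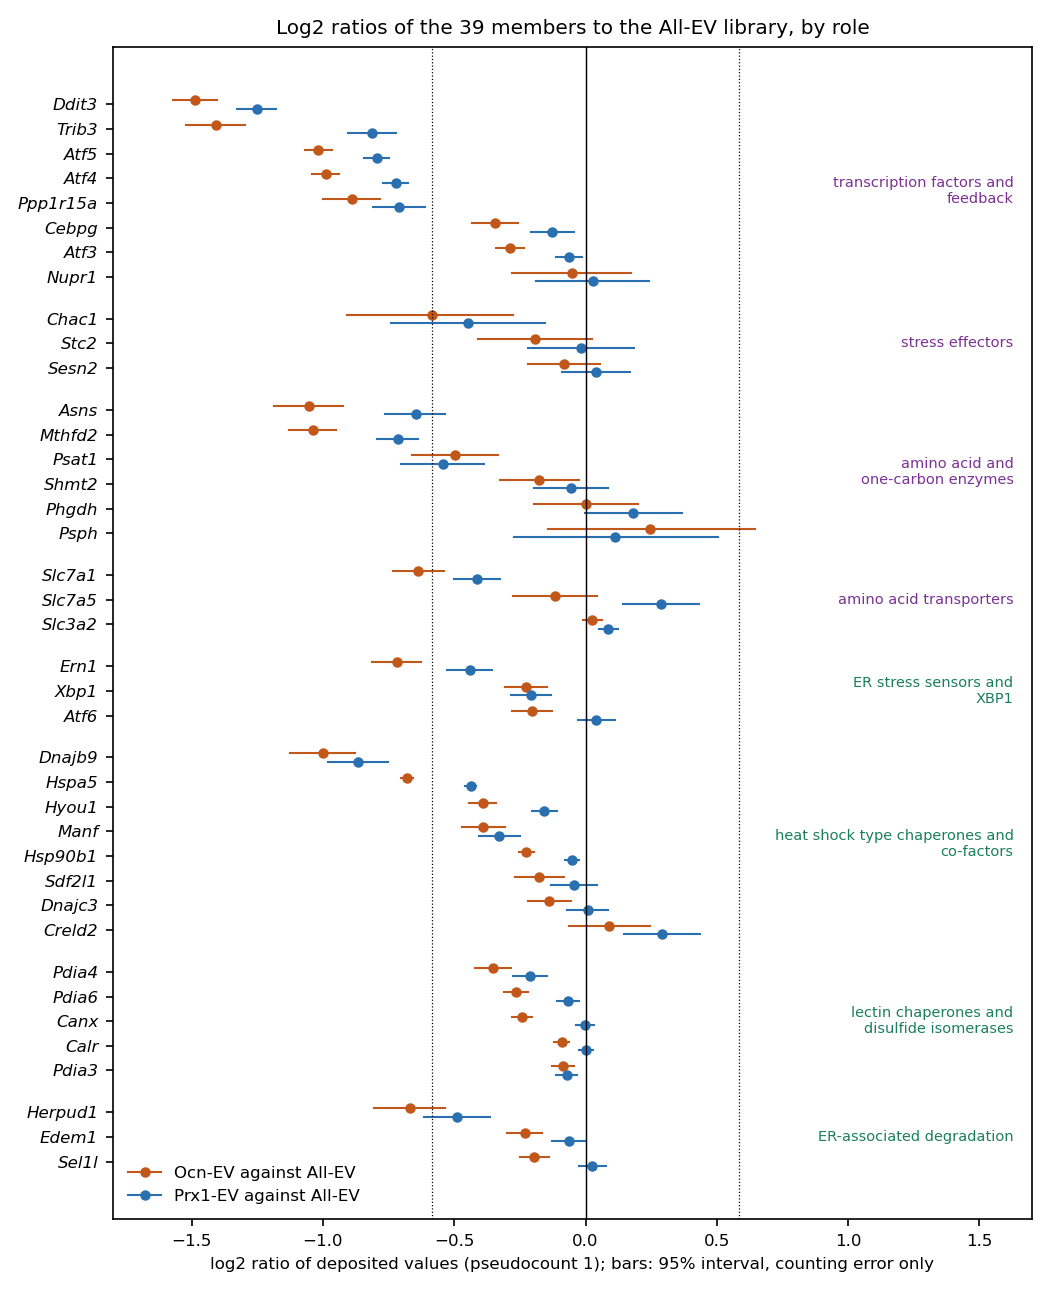
Log2 ratios of the 39 members to the All-EV library (x axis) for Ocn-EV (orange) and Prx1-EV (blue), with 1 row per gene grouped by role. Bars are 95% intervals for counting error, and dotted lines mark 1.5-fold. Ddit3 (−1.49) and Trib3 (−1.41) lie farthest left with Ocn-EV, Ddit3 (−1.25) and Dnajb9 (−0.86) with Prx1-EV, and with equal library totals all points move right by 0.26 (Ocn-EV) or 0.22 (Prx1-EV), which puts the medians of the ER genes (green labels) above 0.

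The 3 effectors of the stress programme lay nearer to the control than Atf4 did. Chac1, an enzyme that breaks down glutathione and a sensitive ATF4 target, stood at 227 (All-EV), 151 (Ocn-EV) and 167 (Prx1-EV). Its log2 ratios were −0.59 (−0.91 to −0.27) and −0.45 (−0.74 to −0.16), on 146 to 201 reads per library, so its place at the 1.5-fold line is not set by these counts. Sesn2, which signals lack of leucine to the growth kinase mTORC1, stood at 977, 923 and 1003. Stc2, a secreted glycoprotein, stood at 412, 360.3 and 407. The intervals of Sesn2 and Stc2 include 0 in all comparisons.

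The amino acid enzymes differed among themselves. Asns (chr6:7675165-7693209), which makes asparagine and is a textbook ATF4 target, stood at 1565 (All-EV), 754 (Ocn-EV) and 999 (Prx1-EV). This was 2.08-fold lower with Ocn-EV (log2 −1.05, −1.19 to −0.92) and 1.57-fold lower with Prx1-EV (−0.65, −0.76 to −0.53). Mthfd2, the mitochondrial folate enzyme that acts after SHMT2, stood at 3380.3 (All-EV), 1645 (Ocn-EV) and 2059 (Prx1-EV). Its log2 ratios were −1.04 (−1.13 to −0.95) and −0.72 (−0.79 to −0.64). Shmt2, which splits serine to feed that folate cycle, stood at 828, 733 and 797 (log2 −0.18 and −0.06). Mthfd2 therefore stood at 4.08 times the Shmt2 value in All-EV, 2.24 times in Ocn-EV and 2.58 times in Prx1-EV.

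The enzymes of serine synthesis act in the order PHGDH, PSAT1 and PSPH. Phgdh stood at 454 (All-EV), 455 (Ocn-EV) and 515 (Prx1-EV), and both of its intervals against All-EV include 0. Psat1 stood at 787, 557 and 539, with log2 ratios of −0.50 (−0.66 to −0.33) and −0.54 (−0.70 to −0.39). Psph stood at 109.8, 130.5 and 119 (log2 0.25, −0.14 to 0.65, and 0.11, −0.27 to 0.50) on at most 136 reads. Psat1 was the only enzyme of this route with both intervals away from 0, and the only one of the 39 members that was lowest in Prx1-EV.

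The transporters were as varied. Slc7a1, the carrier of arginine and lysine, stood at 2408 (All-EV), 1549 (Ocn-EV) and 1808 (Prx1-EV) (log2 −0.64, −0.73 to −0.54, and −0.41, −0.50 to −0.33), and with equal library totals the first was −0.38. Slc3a2, the heavy chain that carries several amino acid exchangers to the cell surface, had the highest level of the ATF4 group at 12442, 12665 and 13215. Slc7a5, the leucine-carrying light chain that pairs with it, stood at 725, 669.9 and 885. Neither chain of this pair reached 1.5-fold, and Slc7a5 was higher in Prx1-EV than in both other libraries, by a log2 ratio of 0.29 (0.14 to 0.43) over All-EV. Per kilobase of the longest annotated transcript, Slc3a2 (4423 in All-EV) was close to Atf4 (4792), Ddit3 (4992) and Atf5 (5433), while Psph was the lowest member at 38.2.

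**Figure D4:**
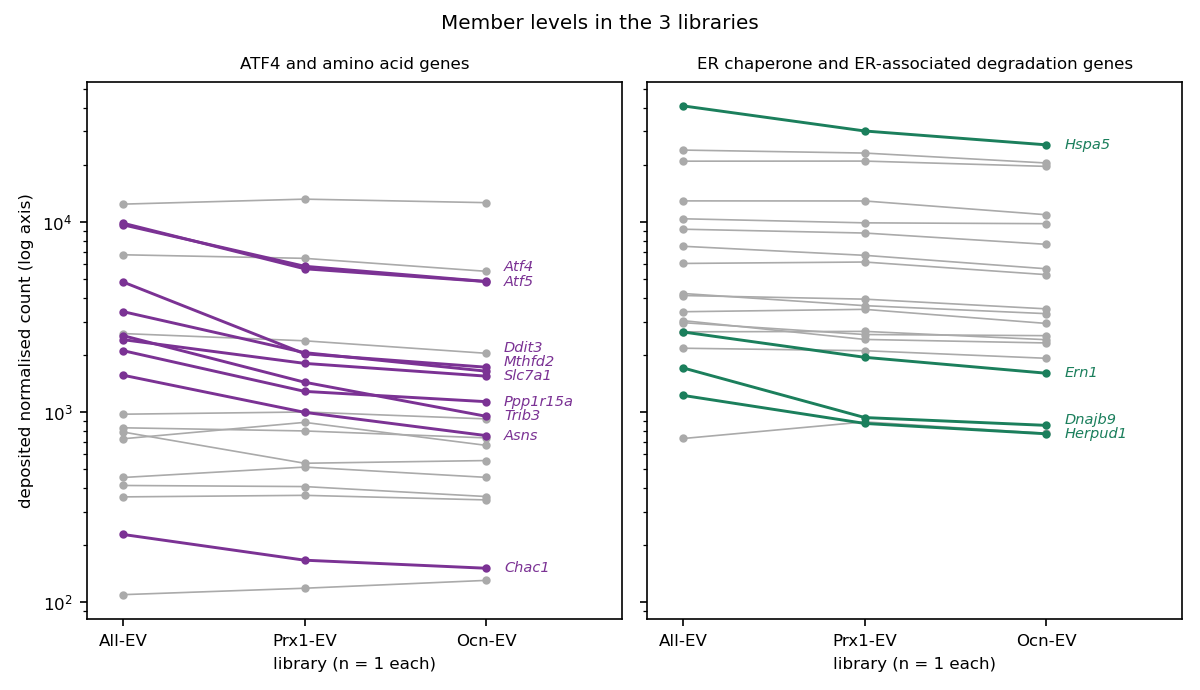
Deposited normalised counts (log axis) of the ATF4 group (left) and the ER group (right) in the 3 libraries (n = 1 each), with lines joining the values of 1 gene. Coloured and named genes were at least 1.5-fold lower in Ocn-EV than in All-EV as deposited, 9 of 20 and 4 of 19, of which 7 and 1 passed with equal library totals. Hspa5, at the top of the right panel, has 40869.6 in All-EV and 25518 in Ocn-EV, and grey genes differ by less than 1.5-fold between these libraries.

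In the ER group, the sensor kinase gene Ern1 stood at 2642 (All-EV), 1605 (Ocn-EV) and 1945 (Prx1-EV) (log2 −0.72, −0.81 to −0.63, and −0.44, −0.53 to −0.36). The sensor gene Atf6 stood at 3379, 2933 and 3478, with log2 ratios of −0.20 (−0.28 to −0.13) and 0.04 (−0.03 to 0.11). Xbp1, the target of IRE1, stood at 2959, 2529 and 2564 (log2 −0.23 and −0.21). Of the 3 sensor branch genes, Ern1 was the 1 at least 1.5-fold lower, with Ocn-EV, and it did not reach 1.5-fold there with equal library totals (−0.46).

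Hspa5 (chr2:34772090-34776529) encodes BiP, the main ER chaperone and the protein that holds the stress sensors inactive. It was the most abundant member, also per kilobase (11130.1 in All-EV), at 40869.6 (All-EV), 25518 (Ocn-EV) and 30171 (Prx1-EV). The ratios were 1.60-fold lower with Ocn-EV (log2 −0.68, −0.70 to −0.66) and 1.35-fold lower with Prx1-EV (−0.44, −0.46 to −0.42). With equal library totals the Ocn-EV ratio was −0.42, short of 1.5-fold. Its span overlaps Rabepk, itself at 188, 147 and 178, by 1921 bases. Dnajb9, the BiP co-chaperone ERdj4 and a target of spliced XBP1, stood at 1709, 853 and 938. It was 2.00-fold lower with Ocn-EV (log2 −1.001, −1.13 to −0.88) and 1.82-fold lower with Prx1-EV (−0.86, −0.98 to −0.75), and was the 1 ER gene past 1.5-fold in both comparisons and under every scaling tried.

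The other chaperones lay closer to the control. Hsp90b1 (GRP94), which shares the ERSE with Hspa5, stood at 23942 (All-EV), 20481 (Ocn-EV) and 23093 (Prx1-EV) (log2 −0.23 and −0.05). Hspa5 stood at 1.71 times the Hsp90b1 value in All-EV, against 1.25 in Ocn-EV and 1.31 in Prx1-EV. Hyou1, a large chaperone that resets BiP, stood at 7465, 5688 and 6691, and Manf, a secreted BiP cofactor, at 3033, 2315 and 2416. Both had log2 ratios of −0.39 with Ocn-EV. Dnajc3 (2649, 2408 and 2663), a co-chaperone of BiP, and Sdf2l1 (2172, 1923 and 2108), which works with ERdj proteins, were within 0.18 of 0 on the log2 scale in both comparisons. Creld2, an ER stress-induced protein with isomerase activity, was the 1 ER gene lowest in All-EV, at 728, against 775 in Ocn-EV and 889.8 in Prx1-EV (log2 0.09, −0.06 to 0.24, and 0.29, 0.15 to 0.43).

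The lectin chaperones, which bind sugar chains of new glycoproteins, and the disulfide isomerases had no member past 1.5-fold. Over all genes 13.6% were lower with Ocn-EV and 12.7% with Prx1-EV. Calr (calreticulin) stood at 20932 (All-EV), 19655 (Ocn-EV) and 20955 (Prx1-EV). Its membrane-bound relative Canx (calnexin) stood at 12937, 10943 and 12926. Pdia3, the isomerase that works with both, stood at 10418, 9818 and 9916. Pdia6 (9180.2, 7647 and 8765) and Pdia4 (4213, 3302 and 3637) had the lowest Ocn-EV ratios of these 5 genes, at −0.26 and −0.35. All 5 intervals for Ocn-EV lay below 0, which sets them apart from the control by more than counting error. Most genes differed by more than that, as a comparison of the reads separated 7134 of 11067 genes between these libraries. With equal library totals Calr (0.17), Canx (0.02) and Pdia3 (0.17) lay above the control and Pdia6 (−0.01) and Pdia4 (−0.10) below it.

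Genes of ER-associated degradation, the export of misfolded protein to the proteasome, were represented by 3 members. Herpud1, a membrane protein of the export complex and the 1 member with both a CARE core and an ERSE-II in its promoter, stood at 1226 (All-EV), 770.4 (Ocn-EV) and 873 (Prx1-EV). Its log2 ratios were −0.67 (−0.81 to −0.53) and −0.49 (−0.61 to −0.36), and −0.41 with equal library totals for Ocn-EV. Edem1, which picks out misfolded glycoproteins by their sugars, stood at 4111, 3499.7 and 3935. Sel1l, the scaffold of the ubiquitin ligase HRD1, stood at 6065, 5296 and 6170.3. Herpud1 thus stood at 0.202 of the Sel1l value in All-EV and at 0.145 and 0.142 in Ocn-EV and Prx1-EV.

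The responses of members with and without these promoter letters overlapped. The 5 ATF4 group members with a CARE core had 3 genes at least 1.5-fold lower with Ocn-EV (median −0.59, from −1.41 for Trib3 to −0.05 for Nupr1), and the 14 without one had 6 (median −0.42, from −1.49 to 0.25). The 7 ER members with an ERSE had 1 gene lower (Hspa5) and a median of −0.23, and the 9 with a promoter but no ERSE had 3 and a median of −0.23. With the ERSE-II of Herpud1 counted too, 8 had a match and 8 had none, each with 2 lower genes and a median of −0.23. Over all genes 13.6% were lower with Ocn-EV. With equal library totals Chac1, Slc7a1, Ern1, Hspa5 and Herpud1 fell short of 1.5-fold in this comparison. With Prx1-EV, where 12.7% of all genes were lower, the 7 with an ERSE had 0 lower genes and a median of −0.00128. The 9 without an ERSE had 1 and a median of −0.21. In the same comparison the 5 with a CARE core had 2 lower genes (median −0.45), and the 14 without one had 5 (median −0.27). With Ocn-EV the ERSE holders ranged from −0.68 (Hspa5) to 0.09 (Creld2).

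Ocn-EV and Prx1-EV were compared directly. In the ATF4 group 1 of 20 members was at least 1.5-fold lower with Ocn-EV, where 1.30% of all genes were, and in the ER group 0 of 19. None of the 39 was 1.5-fold higher, against 2.24% of all genes. The member was Trib3 (log2 −0.59, −0.71 to −0.48), which did not reach 1.5-fold with equal library totals (−0.56). Small differences ran mostly one way. Ratios were below 0 in 18 of 20 ATF4 genes and in 19 of 19 ER genes (medians −0.20 and −0.17), against 53.0% of all genes, and in 18 and 17 with equal library totals. After Trib3 the lowest were Asns (−0.41, −0.54 to −0.27), Slc7a5 (−0.40, −0.55 to −0.26), Mthfd2 (−0.32, −0.42 to −0.23) and Ern1 (−0.28, −0.37 to −0.18). All-EV was the highest and Ocn-EV the lowest library for 13 of 20 ATF4 genes and 14 of 19 ER genes, an order that 25.9% of all genes showed. The order held with equal library totals for 9 of 20 and 5 of 19, against 13.4% of all genes.

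The other genes of these pathways were described from lists of the same kind. Among 12 genes of translation control, mostly eIF2 kinases and exchange factor subunits, 2 were at least 1.5-fold lower and 1 higher in each comparison with All-EV. These counts are near the shares over all genes, 13.6% lower and 13.8% higher with Ocn-EV, and 12.7% each with Prx1-EV. Neither lower gene encodes an eIF2 kinase, exchange factor or phosphatase subunit. Eif4ebp1, a translation repressor that ATF4 induces, stood at 4831 (All-EV), 1971.5 (Ocn-EV) and 2012 (Prx1-EV), and Eif2s1, the eIF2 subunit that is phosphorylated, at 1879.7, 1101 and 1058. The higher gene was Eif2ak2, the double-stranded RNA kinase PKR, which interferon induces, at 404, 863 and 719. Eif2ak3, which encodes the ER stress kinase PERK, stood at 389, 490 and 534. With equal library totals Eif2s1 did not reach 1.5-fold with Ocn-EV, and Eif2ak3 was at least 1.5-fold higher in both comparisons (0.59 and 0.68). That scaling put 24.7% and 22.9% of all genes at least 1.5-fold higher. In this list 2 of 12 were higher in each comparison.

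Of 18 further ATF4 targets that passed the filter, 4 were at least 1.5-fold lower with each vesicle type and 0 higher (medians −0.29 and −0.24). Over all genes 13.6% and 12.7% were lower and 13.8% and 12.7% higher. With equal library totals 3 were lower in each comparison (Slc7a11, Slc6a9 and Pck2), and 2 and 1 were higher. The higher genes were Gdf15 (0.73) and Vldlr (0.70) with Ocn-EV and Gdf15 (0.65) with Prx1-EV. Over all genes 6.65% and 6.51% were lower and 24.7% and 22.9% higher with that scaling. Slc7a11, the cystine carrier that is also induced by the factor NRF2, stood at 4187 (All-EV), 828 (Ocn-EV) and 770.3 (Prx1-EV) (log2 −2.34 and −2.44). The glycine carrier Slc6a9 stood at 658, 222 and 276 (−1.56 and −1.25), and the mitochondrial enzyme Pck2 at 1986, 1084 and 1100.1 (−0.87 and −0.85). The fourth gene was Ddit4, an mTORC1 inhibitor also induced by low oxygen, with Ocn-EV (−0.68) and Jdp2, a factor of the AP-1 family, with Prx1-EV (−0.73). Gdf15, a stress hormone, stood at 3002, 4156 and 4036 (0.47 and 0.43).

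The cytosolic tRNA synthetases, which load amino acids onto tRNAs and include known ATF4 targets, had 19 of 20 ratios below 0 with Ocn-EV and 18 with Prx1-EV. With Ocn-EV 7 of 20 were at least 1.5-fold lower and 0 higher (median −0.52), against 13.6% lower and 51.3% of ratios below 0 over all genes. With Prx1-EV 3 of 20 were lower and 0 higher (median −0.40), against 12.7% lower over all genes. With equal library totals 1 of 20 (Eprs, −0.64) was lower with Ocn-EV and 0 with Prx1-EV, and 18 and 17 ratios stayed below 0. With that scaling 6.65% and 6.51% of all genes were lower, and 31.2% and 32.1% of all ratios were below 0. Eprs stood at 10379.8 (All-EV), 5572 (Ocn-EV) and 6645 (Prx1-EV) (log2 −0.90 and −0.64), Qars at 2435, 1386 and 1459 (−0.81 and −0.74), and Tars at 1920.5, 1118 and 1239.6 (−0.78 and −0.63).

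Of 18 other ER folding and glycosylation genes, 3 were at least 1.5-fold lower in each comparison with All-EV, near the 13.6% and 12.7% over all genes, and 1 was higher with Ocn-EV. Of the lower genes, Ero1a alone passed in each comparison with equal library totals. Ero1a, the oxidase that recharges disulfide isomerases and is induced by low oxygen and by CHOP, stood at 30458 (All-EV), 9055 (Ocn-EV) and 12376 (Prx1-EV) (log2 −1.75, −1.79 to −1.72, and −1.30, −1.33 to −1.27). That ratio was lower than any of the 39 members. Dnajc1, a J-domain co-chaperone, stood at −0.84 and −0.62, and Fkbp2, an ER prolyl isomerase, at −0.83 and −0.71. The higher gene was the isomerase Pdia5 at 141, 233 and 181. Among 15 other degradation genes Derl1, a derlin of the export channel, was the 1 past 1.5-fold, with Ocn-EV only (2271, 1401 and 1562). Of 15 translocon and signal peptidase genes, 3 were lower with Ocn-EV and 2 with Prx1-EV, with Ssr4 (−0.68 and −0.80) and Sec61g (−0.62 and −0.60) in both and Sec11c with Ocn-EV (−0.79), and 0 were higher. With equal library totals 0 of the degradation genes and 0 of the translocon genes were lower in either comparison. The degradation gene Syvn1 was then at least 1.5-fold higher with Prx1-EV (0.62), 1 of 15, against 22.9% of all genes. Lower by 1.5-fold with that scaling were 6.65% of all genes with Ocn-EV and 6.51% with Prx1-EV.

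**Figure D5:**
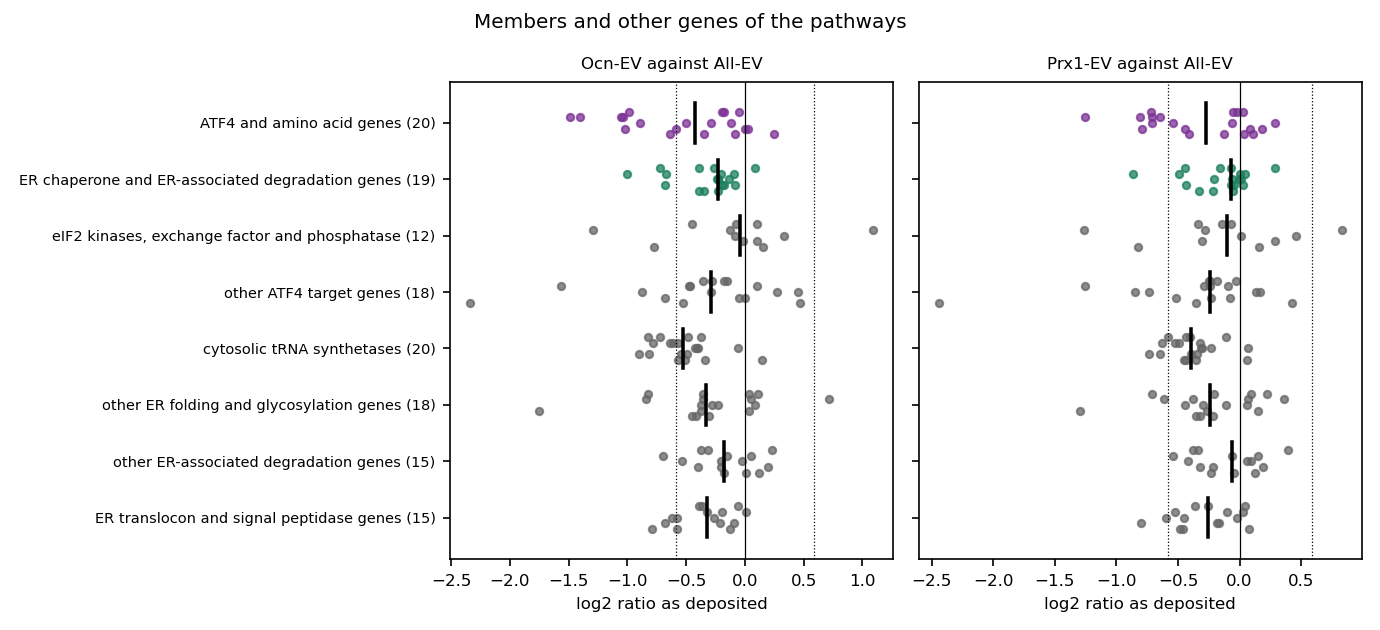
Log2 ratios of deposited values (x axis) for the members and for 6 other lists of pathway genes (y axis, number of genes in brackets), with 1 panel per comparison to All-EV. Each point is a gene, black bars are medians and dotted lines mark 1.5-fold. The eIF2 list also holds Eif2s1 and Eif4ebp1. The tRNA synthetases have the lowest medians (−0.52 and −0.40), and equal library totals would move all points right by 0.26 or 0.22.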

How the data were processed

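RNA of 3 libraries (1 each for All-EV, Ocn-EV and Prx1-EV) was sequenced as paired reads. The deposited signal values are gene counts that the authors divided by a size factor per library. Per the submitters' processing notes the tools were FastQC 0.74, Trimmomatic 0.38.1, HISAT2 2.2.1, featureCounts 2.0.3 and DESeq2 2.11.40.8 with genome mm10, and their settings are not given in the sources used here. Dividing each library by its smallest step returned whole reads for 100% of values (tolerance 1e-06), 14233978 to 17269204 per library.

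Ratios are log2(value + 1) differences of deposited values for the 11067 genes with a mean of at least 50, computed in Python 3.11.15 with pandas 2.3.3, and 95% exact binomial intervals on recovered reads cover counting error only. With 1 library per group there is no test between conditions. An exact binomial comparison of the reads, with Benjamini-Hochberg adjustment, separated 7134 (Ocn-EV and All-EV), 7092 (Prx1-EV and All-EV) and 2840 (Ocn-EV and Prx1-EV) of 11067 genes, which compares libraries and not conditions. The calculation was tested on simulated data. Alternatives were equal library totals, TMM factors (edgeR 4.0.16), other pseudocounts and filters, and removal of length and GC trends. Members, gene lists and the rule for naming genes (all members, and in each other list up to 3 genes per direction farthest from 0 past 1.5-fold) were chosen with earlier results of these data known. Gdf15, Eif2ak3, genes named in excess of these and the pairs set in ratio were named after their values were seen. Promoter letters are from RefSeq, build GRCm38.p6. Gene spans are from RefSeq as well, and transcript lengths and GC content from GENCODE.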

Additional observations from a re-analysis of the deposited data

How the results depend on the processing

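Each result is a difference between single libraries, so depth limits only genes with few reads, such as Chac1 and Psph, and no replicate could be left out. No paired analysis was possible because each group has 1 library. The 18 group medians and counts kept their direction and stayed within the limits set for a change under other pseudocounts, other filters and TMM factors. With libraries set to equal totals, 11 of 18 did so. Most of these 11 are counts that were 0 under every setting, so they had no direction to keep. They are the counts of members at least 1.5-fold higher, and of lower ER genes between Ocn-EV and Prx1-EV. With equal totals the ATF4 group's median was −0.16 (Ocn-EV against All-EV) and −0.0452 (Prx1-EV against All-EV), and the ER group's medians turned to 0.0242 and 0.158. Members at least 1.5-fold lower were then 1 of 19 ER genes with Ocn-EV (4 as deposited), 2 of 20 ATF4 genes with Prx1-EV (7 as deposited), and 0 ATF4 genes between Ocn-EV and Prx1-EV (1 as deposited). Equal totals add one constant to every ratio of a comparison, which by construction accounts for these moves. With trends over length and GC content removed, 2 ER genes were lower with Prx1-EV (1 as deposited), Dnajb9 and Ern1 (−0.67), and the cause was not tested. Asns (−0.47) and Mthfd2 (−0.58) then fell short of 1.5-fold with Prx1-EV, and Slc7a1 (−0.66) reached it.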
